A study of Mus musculus with 20 samples.

Results

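The liver response to orchiectomy in normal air was described by comparing 5 orchiectomized male mice (ORX_Nx) with 4 sham-operated male mice (Sham_Nx). Orchiectomy is the surgical removal of the testes, the main source of testosterone, and a sham operation repeats the surgery without removing them. Members were chosen by the operation and exposure in the sample labels, which gave 9 of the 19 libraries with values in the series. Both groups breathed normal air (normoxia, Nx) over the 2 weeks in which the other groups of the series were exposed to intermittent hypoxia (IH), repeated drops in oxygen that model sleep apnoea. The other 10 libraries, 5 orchiectomized (ORX_IH) and 5 sham-operated (Sham_IH) mice kept in intermittent hypoxia, entered the estimate of the spread and one comparison of orchiectomy effects. Strain, age and the time between surgery and tissue collection are not given in the sources used here. A further Sham_Nx mouse, number 1 in the labels, was not analysed here. The material was polyadenylated RNA of whole liver tissue, so the libraries mix hepatocytes with every other cell of the organ, and fewer cells of a type cannot be told apart from less RNA per cell.

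The mouse liver expresses a large set of genes at different levels in males and females. In males, testosterone shapes a pulsatile release of growth hormone from the pituitary, each pulse activates the transcription factor STAT5B in hepatocytes, and the repressor BCL6 is favoured, whereas the more continuous release in females favours the factor CUX2. Major urinary proteins, lipocalins that carry pheromones into urine, are the best known male-biased products of this system, and several cytochromes P450 of the Cyp2b, Cyp2a, Cyp2c and Cyp3a subfamilies are known as female-biased.

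Total estimated counts of the 9 libraries lay between 30.6 and 69.6 M, and each library is named by its group and mouse number. The lowest total was that of ORX_Nx 5, and the next lowest was that of Sham_Nx 2 at 50.9 M. Levels are given in CPM, read counts relative to a library total scaled by the trimmed mean of M-values, and differences as log2 fold change ± standard error (SE). Genes count as called where the p-value of edgeR's quasi-likelihood test, adjusted over all genes tested after Benjamini and Hochberg (BH), was under 0.05. The 14 hepatocyte identity genes that were checked, Alb (serum albumin) among them, summed to 107900 to 122200 CPM in Sham_Nx and 98230 to 150400 CPM in ORX_Nx. ORX_Nx 5 was the lowest liver for these genes. It was also the lowest for pericentral hepatocyte markers, at 5353 CPM against at least 9059 CPM in every other liver. Carboxylesterase genes summed to 2885 CPM in ORX_Nx 5 and to at least 4675 CPM in every other liver. For genes of amino acid catabolism ORX_Nx 5 was the highest, at 41090 CPM. A few libraries stood apart before any comparison. Markers of Kupffer cells, the macrophages of the liver, summed to 241.9 to 389.2 CPM in Sham_Nx and to 563, 361, 317, 1349 and 860 CPM in ORX_Nx 1 to 5, so ORX_Nx 4 and ORX_Nx 5 were the highest, and the same pair led in acute phase transcripts. Skeletal muscle markers summed to 205.4, 45.6, 5.48 and 1.89 CPM in Sham_Nx 2 to 5 and to at most 11.95 CPM in ORX_Nx, and pancreatic acinar markers reached 608 CPM in Sham_Nx 5 against at most 7.26 CPM in ORX_Nx. The gene lists that moved most with ORX_Nx 4 and ORX_Nx 5 are given with and without that pair, and the part of these libraries in each result was not tested.

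Of 16164 genes tested, 2319 were called changed after orchiectomy, which is 14.3% of them. Of these, 1274 rose (7.88% of all genes tested) and 1045 fell (6.46%). In 1995 genes (12.3%) the 5 orchiectomized libraries lay entirely above (920, or 5.69%) or entirely below (1075, or 6.65%) the 4 sham libraries, and 1490 of the called genes were among them. Small changes made up much of the response, since 1158 called genes moved by under 1.5-fold. Rises outnumbered falls at moderate sizes, with 519 rises and 174 falls of at least 2-fold and 107 rises and 75 falls of at least 4-fold, whereas 31 rises and 32 falls reached 16-fold. The median log2 fold change over all genes tested was 0.013, and 54.9% of the called genes rose. With no scaling factors that median was 0.14 and 2361 genes rose against 373 that fell, 86.4% upward. With only the 9 compared libraries in the fit, 918 genes were called (5.98% of 15342), of which 886 were among the 2319. The direction of the majority differed between settings. There were 388 rises and 530 falls in the 9 libraries alone, and 830 and 1013 under limma-voom. Without ORX_Nx 4 and ORX_Nx 5 there were 703 and 773, whereas DESeq2 gave 1718 rises and 1360 falls. Leaving out Sham_Nx 2, Sham_Nx 4 or Sham_Nx 5 lowered the count to 1410, 1140 or 1370.

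**Figure D1:**
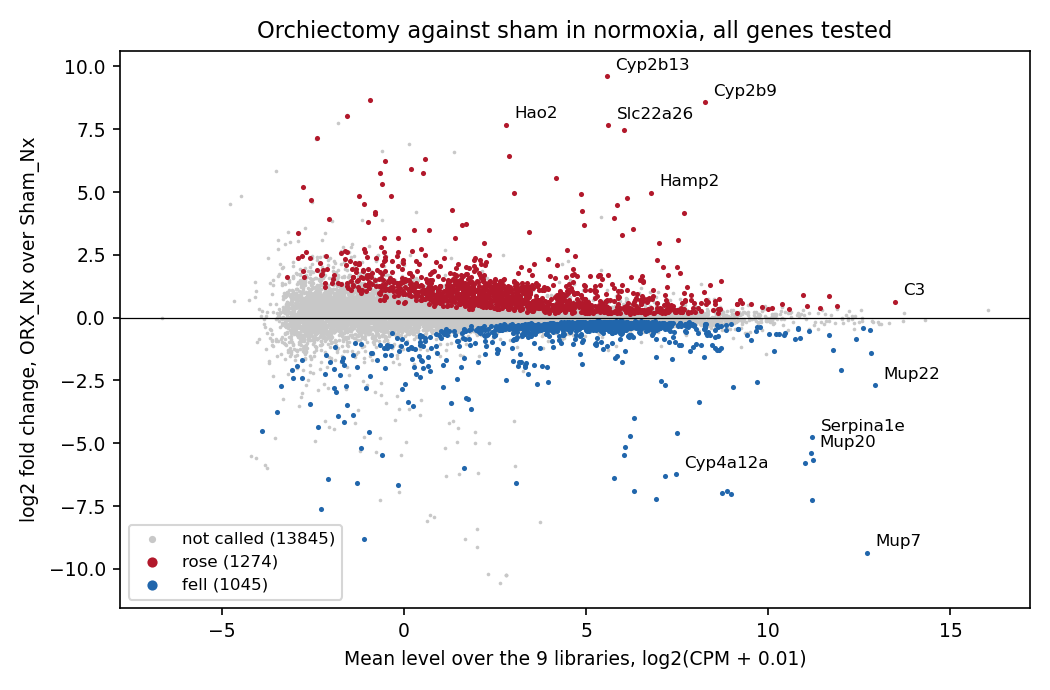
Log2 fold change of orchiectomized over sham-operated livers in normoxia (vertical axis) against the mean level in log2 CPM over the 9 libraries (horizontal axis), 1 point per gene tested. Red points are the 1274 called genes that rose and blue points the 1045 that fell; the labelled genes span changes from Mup7 at −9.35 to Cyp2b13 at 9.62.

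A larger share of the falls than of the rises was called again without the pair of livers with high inflammatory transcripts, a setting that also leaves fewer mice. Without ORX_Nx 4 and ORX_Nx 5, 1476 genes were called (9.04% of 16330). Of the 174 falls of at least 2-fold, 146 (83.9%) were called again in the same direction, and of the 519 rises of at least 2-fold, 188 (36.2%) were. Among changes of at least 16-fold the same shares were 84.4% of 32 falls and 71% of 31 rises. With only the 9 compared libraries in the fit, which keeps the pair, 79.3% of the falls and 32.8% of the rises of at least 2-fold were called again. The part of the pair in the difference between rises and falls was not tested. Across all 25 alternative settings that were run, 128 genes kept their call and direction, 51 risen and 77 fallen. These 128 held 17 of the 18 called major urinary protein genes, 11 P450 genes, 14 other male-biased genes, 11 other female-biased genes and 7 organic ion transporters of the Slco and Slc22a families, while 57 belonged to none of the gene lists.

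The major urinary protein genes lost most of their transcripts. Together they took 7.02, 4.69, 6.48 and 5.88% of all counts in Sham_Nx 2 to 5 and 0.647, 0.737, 0.441, 0.569 and 0.132% in ORX_Nx 1 to 5, a mean of 6.02 ± 0.997% (SD, n = 4) against 0.505 ± 0.235% (SD, n = 5). Of 21 members tested, 18 fell and 3 did not pass (85.7% called, beside 14.3% of all genes). The median log2 fold change was −5.38 beside 0.013 over all genes. All 18 falls were called again with only the 9 libraries in the fit and without ORX_Nx 4 and ORX_Nx 5. Mup7 stood at 19194, 9435, 18261 and 13862 CPM in Sham_Nx and at 13.7, 62.8, 6.31, 28.7 and 4.69 CPM in ORX_Nx. It fell by 9.35 ± 1.05 on the log2 scale, the largest fall among called genes (edgeR BH-adjusted p = 1.81e-05). Mup20, which encodes the male pheromone darcin, stood at 5052, 5749, 4609 and 4820.4 CPM in Sham_Nx and at 82.1, 73.1, 103, 251 and 98.1 CPM in ORX_Nx, so even the highest orchiectomized liver lay far below the lowest sham liver. It fell by 5.38 ± 0.48 (edgeR BH-adjusted p = 1.92e-06).

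The fitted falls spanned a wide range among the members. Mup14, Mup12, Mup15, Mup1, Mup17, Mup8 and Mup9 fell by 7.26 ± 0.61, 7.23 ± 0.65, 7.04 ± 0.94, 6.98 ± 0.57, 6.89 ± 0.98, 6.57 ± 0.58 and 6.32 ± 0.67 (log2 ± SE). Mup19 fell by 5.79 ± 0.72 and Mup11 fell by 5.65 ± 0.48. Smaller falls were found for Mup21 (−4.005 ± 0.40), Mup13 (−3.41 ± 0.52), Mup16 (−3.34 ± 0.49), Mup6 (−2.81 ± 0.67), Mup22 (−2.68 ± 0.39), Mup2 (−2.66 ± 0.54) and Mup3 (−2.07 ± 0.35). Mup22 kept 3000.2, 3796, 1488, 2739 and 494 CPM in the 5 orchiectomized livers, against 15359, 13060.1, 15224 and 15581 CPM in the sham livers, and Mup3 kept 2046, 2240.2, 2100.2, 1705 and 376 against 7566, 6896, 7185 and 6811 CPM. In both genes every orchiectomized library was below every sham library, with ORX_Nx 5 the lowest. Mup5, at −1.59 ± 0.61, Mup10, at −0.59 ± 0.36, and Mup18, at −1.16 ± 0.40, did not pass and their groups overlapped. The pseudogene Mup-ps6 had 230 counts over the 4 sham libraries and 0 over the 5 orchiectomized ones, at least 94.2-fold lower when 3 counts over the group are taken as the floor. Reads of these near-identical genes can be assigned to one or another copy, so the family total is firmer than the split among members.

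**Figure D2:**
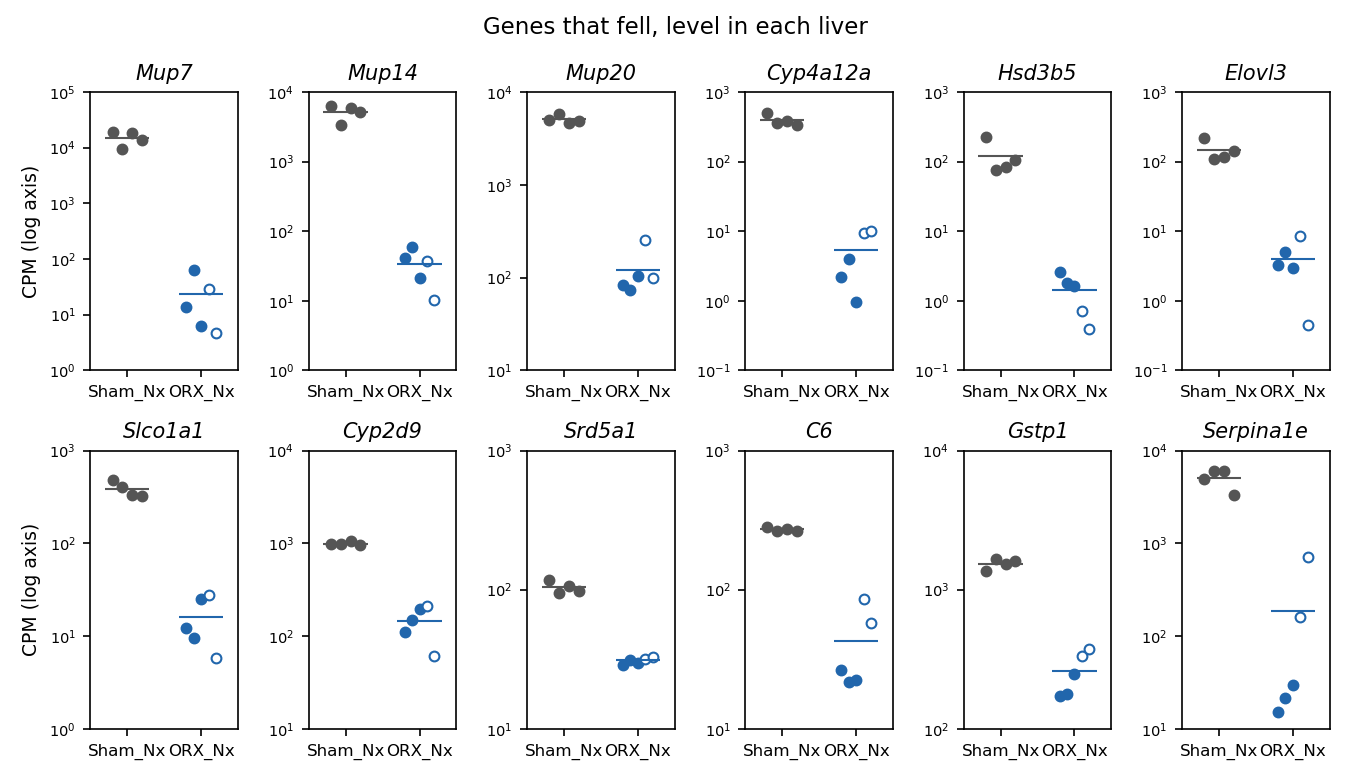
CPM of 12 genes that fell after orchiectomy (log axis), 1 point per liver, with Sham_Nx 2 to 5 in grey and ORX_Nx 1 to 5 in blue and a bar at each group mean. In each of the 12 genes the highest ORX_Nx liver lies below the lowest Sham_Nx liver. ORX_Nx 4 and ORX_Nx 5 (open symbols) are the highest of their group for genes that include Serpina1e, Cyp4a12a, C6 and Srd5a1.

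Most of the other listed male-biased genes fell with them. Their list was chosen with earlier results of these data known, so its counts are not an independent test. Of 30 listed male-biased genes outside the Mup and P450 families, 22 fell, none rose and 8 did not pass (73.3% called, beside 14.3% of all genes). The median log2 fold change was −1.56. Of the 22 calls, 20 were made again in the 9 libraries alone and 21 without ORX_Nx 4 and ORX_Nx 5. Hsd3b5, a 3-ketosteroid reductase of male liver, stood at 224, 74.8, 84.3 and 104 CPM in Sham_Nx and at 2.56, 1.80, 1.65, 0.702 and 0.391 CPM in ORX_Nx and fell by 6.38 ± 0.66 (edgeR BH-adjusted p = 8.19e-06). Elovl3, which elongates saturated and monounsaturated fatty acids, stood at 218, 107, 117 and 142 CPM in Sham_Nx and at 3.30, 5.07, 2.94, 8.44 and 0.447 CPM in ORX_Nx and fell by 5.15 ± 0.49 (edgeR BH-adjusted p = 3.51e-06). In both genes Sham_Nx 2 was the highest sham liver and ORX_Nx 5 the lowest orchiectomized one, with a wide gap between the groups. Slco1a1, an organic anion transporter of the hepatocyte membrane, went from 476, 407, 331 and 325 CPM to 12.1, 9.47, 24.9, 27.9 and 5.81 CPM and fell by 4.58 ± 0.63 (edgeR BH-adjusted p = 0.000152). Selenbp2, a selenium-binding protein, fell by 4.71 ± 0.54, and the serpin pseudogene Serpina4-ps1 fell by 5.48 ± 0.58. Obp2a, an odorant-binding lipocalin, was at 2.05, 1.52, 2.33 and 1.95 CPM in Sham_Nx and was detected in 1 of 5 orchiectomized livers, and it fell by 6.67 ± 0.84. The glutathione transferases of the pi class split: Gstp1 fell by 2.56 ± 0.27 and its near-identical neighbour Gstp2 fell by 1.89 ± 0.20, whereas Gstp3 rose by 0.90 ± 0.17. Smaller falls were found for the proteoglycan Cspg5, from 3.65, 4.20, 3.18 and 2.98 CPM to 0.904, 0.936, 0.908, 0.999 and 1.03 CPM (fell by 1.87 ± 0.29), for Ttc39c (−1.56 ± 0.29), for the lysosomal sulfatase Arsa (−1.08 ± 0.17, with ORX_Nx 4 well above the rest of its group) and for the complement regulator Susd4 (−1.93 ± 0.44).

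Gene by gene, the cytochromes P450 moved in both directions, and the family totals of the groups overlapped. P450 genes together took 2.90 ± 0.244% of counts in Sham_Nx (SD, n = 4) and 2.83 ± 0.471% in ORX_Nx (SD, n = 5). ORX_Nx 1 to 3 stood at 2.995, 3.35 and 3.04%, while ORX_Nx 4, at 2.67%, and ORX_Nx 5, at 2.11%, lay below every sham liver. The P450 genes tested summed to 27890 to 34440 CPM in Sham_Nx and 18020 to 34390 CPM in ORX_Nx, lowest in ORX_Nx 5. Of 92 P450 genes tested, 20 rose and 17 fell (40.2% called, beside 14.3% of all genes), and the median log2 fold change was 0.002. The pair Cyp4a12a and Cyp4a12b, male-specific hydroxylases of fatty acids, led the falls. Cyp4a12a stood at 491, 355, 378 and 338 CPM in Sham_Nx and at 2.23, 3.97, 0.949, 9.35 and 10.1 CPM in ORX_Nx, and it fell by 6.22 ± 0.56 (edgeR BH-adjusted p = 1.92e-06). Cyp4a12b fell by 6.88 ± 0.69. Of 6 Cyp4a genes tested 3 fell (50% called), the third being Cyp4a31 (−0.96 ± 0.27). That call was lost without Sham_Nx 4 or ORX_Nx 1 (edgeR BH-adjusted p 0.0537 to 0.139), with a log2 fold change of −0.62 without Sham_Nx 4. Cyp4a10 stood at −0.12 ± 0.23 and Cyp4a14 at −0.45 ± 0.25, did not pass, and their groups overlapped. Cyp2d9, a steroid 16-alpha-hydroxylase and classical male marker, kept part of its level, with 988, 972, 1058 and 949.8 CPM in Sham_Nx and 109, 148, 195, 213 and 60.8 CPM in ORX_Nx (fell by 2.77 ± 0.35; edgeR BH-adjusted p = 6.67e-05). Cyp7b1, an oxysterol 7-alpha-hydroxylase, fell by 2.51 ± 0.28, and Cyp2u1 fell by 1.83 ± 0.20. The closely related Cyp2c67 and Cyp2c68 went opposite ways: Cyp2c67 fell by 0.71 ± 0.11 and Cyp2c68 rose by 0.54 ± 0.15, the latter a call lost without Sham_Nx 2, 3 or 5 (edgeR BH-adjusted p 0.0502 to 0.0818). No member of the Cyp2d subfamily rose and 4 of 14 fell (28.6% called), of which 3 falls were called in the 9 libraries alone.

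Several of the rising P450 genes were nearly silent in sham livers. Cyp2b9 stood at 0.831, 0.496, 2.76 and 1.61 CPM in Sham_Nx and at 669, 733, 663, 397 and 317 CPM in ORX_Nx, and it rose by 8.58 ± 1.05 (edgeR BH-adjusted p = 4.88e-05). Cyp2b13 was at most 0.355 CPM in a sham liver and stood at 85.0, 231, 79.02, 22.4 and 9.08 CPM in ORX_Nx, and it rose by 9.62 ± 1.03 (edgeR BH-adjusted p = 1.07e-05). Both genes showed their lowest orchiectomized values in ORX_Nx 4 and ORX_Nx 5, still above all sham livers. The phenobarbital-inducible Cyp2b10 of the same subfamily stood at 0.63 ± 0.53 and did not pass. Cyp2a4, a testosterone 15-alpha-hydroxylase, went from 0.324, 1.16, 0.355 and 0.813 CPM to 171, 137.8, 88.8, 37.8 and 159.7 CPM and rose by 7.48 ± 0.62 (edgeR BH-adjusted p = 1.28e-06), and Cyp2a22 rose by 4.76 ± 0.62. In the Cyp2c subfamily 8 of 16 genes rose and 2 fell (62.5% called, beside 14.3% of all genes). In the 9 libraries alone 6 rose and 1 fell, and 7 were called without Sham_Nx 2, 3 or 4. Cyp2c69 rose by 4.16 ± 0.66 and Cyp2c40 rose by 3.09 ± 0.48, both of a subfamily known for oxidising arachidonic acid. Cyp2c37 stood at 219, 227, 228 and 172 CPM in Sham_Nx and at 704, 939.7, 726, 413 and 134.998 CPM in ORX_Nx, so that ORX_Nx 5 lay below the sham livers while the other 4 lay above them, and its call (1.47 ± 0.35) was lost with only the 9 libraries in the fit. Cyp3a44 rose by 5.75 ± 0.89 and Cyp3a41a rose by 3.81 ± 0.75, from sham levels of at most 0.121 and 0.0969 CPM. Cyp4x1 rose from at most 0.467 CPM to between 1.26 and 2.26 CPM (rose by 2.65 ± 0.30). Reads of the Cyp2b, Cyp2a and Cyp4a12 copies can also be shared, which leaves the split within each set uncertain.

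Most of the listed female-biased genes outside the P450 family rose. This list too was chosen with earlier results of these data known, so its counts are not an independent test. Of 34 listed genes tested, 22 rose, 1 fell and 11 did not pass (67.6% called, beside 14.3% of all genes). The median log2 fold change was 1.62 beside 0.013 over all genes. Of the 23 calls, 17 were made again in the 9 libraries alone and 21 without ORX_Nx 4 and ORX_Nx 5. Slc22a26, an organic anion transporter, stood at 0.446, 0.386, 0.517 and 0.381 CPM in Sham_Nx and at 122.5, 111, 59.9, 89.6 and 56.3 CPM in ORX_Nx. It rose by 7.66 ± 0.40, with the smallest adjusted p of any gene (edgeR BH-adjusted p = 1.74e-09). Hao2, a peroxisomal hydroxyacid oxidase, was at most 0.129 CPM in a sham liver and stood at 22.04, 21.7, 10.2, 3.68 and 4.86 CPM in ORX_Nx, and it rose by 7.68 ± 0.91 (edgeR BH-adjusted p = 3.31e-05). Sult3a1, a sulfotransferase, stood at 0.0203, 0, 0.485 and 0.0519 CPM in Sham_Nx and at 11.7, 37.4, 7.17, 5.48 and 3.91 CPM in ORX_Nx, and it rose by 6.44 ± 0.84 (edgeR BH-adjusted p = 9.16e-05). In all 3 genes the groups did not overlap, and in Hao2 and Sult3a1 ORX_Nx 4 and ORX_Nx 5 were the lowest or next to lowest orchiectomized livers.

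Hamp2, a hepcidin paralogue, stood at 4.28, 6.39, 3.54 and 10.3 CPM in Sham_Nx and at 222, 276, 208, 152 and 105.5 CPM in ORX_Nx, and it rose by 4.97 ± 0.47 (edgeR BH-adjusted p = 2.84e-06). Hamp itself, which encodes the iron hormone hepcidin, stood at 0.74 ± 0.40, did not pass, and was highest in ORX_Nx 4 and ORX_Nx 5 at 661 and 848 CPM. Eci3, a peroxisomal enoyl-CoA isomerase, rose by 6.31 ± 0.73, the aldehyde dehydrogenase Aldh3b3 rose by 5.93 ± 0.61, and the transporter Slc22a27 rose by 4.97 ± 0.53. Atp6v0d2, a subunit of the vacuolar proton pump, rose by 3.73 ± 0.43, the kinesin adaptor Sybu rose by 3.18 ± 0.37, and Vldlr, the receptor of very low density lipoprotein, rose by 2.32 ± 0.24. Prlr, the prolactin receptor, went from 186, 173, 198 and 214 CPM to 437, 466, 352, 341 and 348 CPM, with all 5 livers above every sham liver (rose by 1.01 ± 0.14; edgeR BH-adjusted p = 0.000234). Rtn4, which shapes the endoplasmic reticulum, was regular in both groups, at 52.4, 51.1, 48.3 and 51.7 CPM in Sham_Nx and at 118, 108, 88.8, 91.3 and 97.3 CPM in ORX_Nx (rose by 0.98 ± 0.10; edgeR BH-adjusted p = 5.35e-06). A1bg varied widely among the orchiectomized livers, at 59.1, 86.5, 34.4, 9.76 and 310.2 CPM in ORX_Nx against 5.88, 1.27, 7.57 and 2.89 CPM in Sham_Nx, with ORX_Nx 5 far above and ORX_Nx 4 just above the sham livers (rose by 4.50 ± 0.87). Dpy19l3 was the listed female-biased gene that fell by 1.30 ± 0.28.

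**Figure D3:**
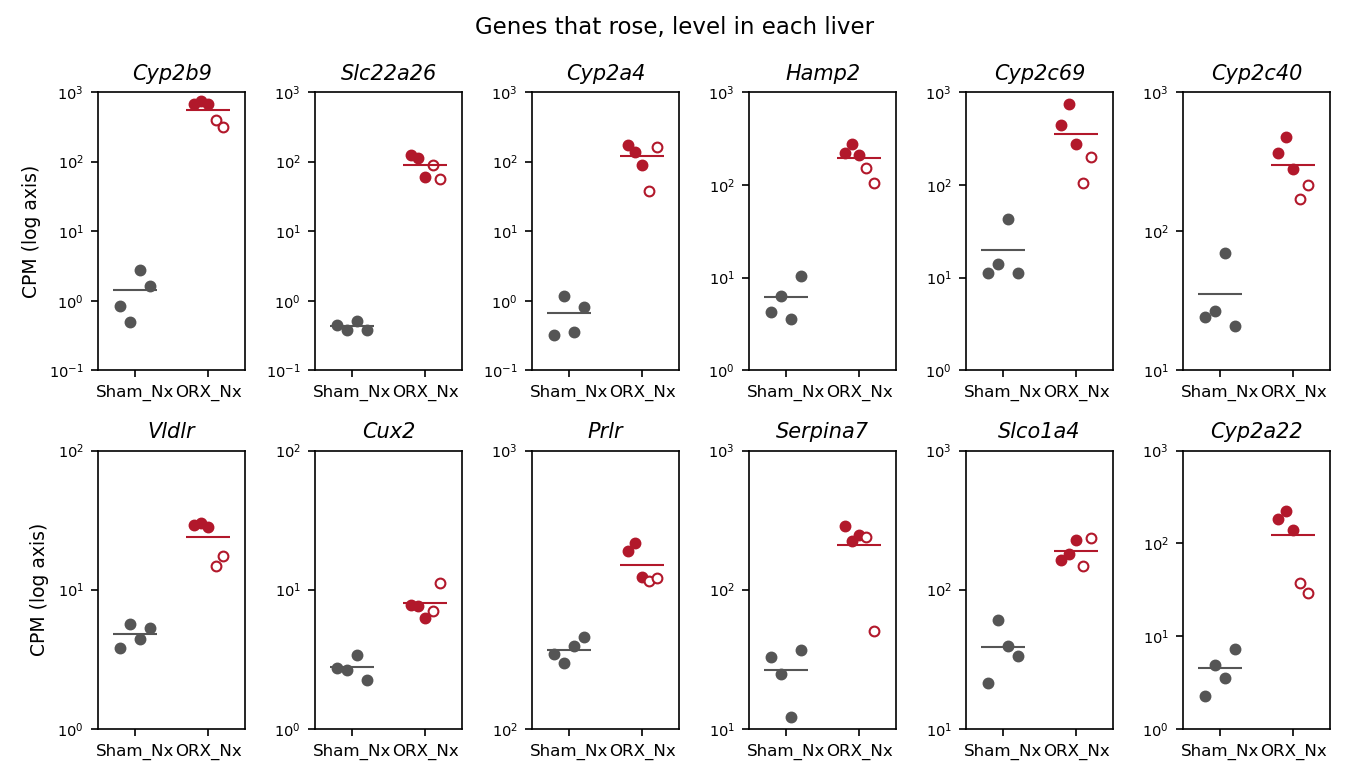
CPM of 12 genes that rose after orchiectomy (log axis), 1 point per liver, with Sham_Nx 2 to 5 in grey and ORX_Nx 1 to 5 in red and a bar at each group mean. In each of the 12 genes the lowest ORX_Nx liver lies above the highest Sham_Nx liver, and open symbols mark ORX_Nx 4 and ORX_Nx 5.

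Promoter sequences are shown for 3 of these genes because they are the ones among the 15 largest rises with a listed promoter that carry the palindrome TTCNNNGAA, the core that STAT5 factors are known to bind, in the 250 bases before the transcription start. The stretches are chr19:7802668-7802917 on the minus strand for Slc22a26, chr10:33857472-33857721 on the plus strand for Sult3a1 and chr7:30924182-30924431 on the minus strand for Hamp2, from RefSeq on build GRCm38.p6, which is older than the GRCm39 build of the counts. Each is written 5′ to 3′ and ends at the base before the start, with the palindrome in capitals.
Slc22a26: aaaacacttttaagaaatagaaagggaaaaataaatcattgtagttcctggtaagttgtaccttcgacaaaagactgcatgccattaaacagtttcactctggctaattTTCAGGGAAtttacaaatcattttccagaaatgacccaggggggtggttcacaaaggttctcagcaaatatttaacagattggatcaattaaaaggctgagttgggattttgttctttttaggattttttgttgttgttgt
Sult3a1: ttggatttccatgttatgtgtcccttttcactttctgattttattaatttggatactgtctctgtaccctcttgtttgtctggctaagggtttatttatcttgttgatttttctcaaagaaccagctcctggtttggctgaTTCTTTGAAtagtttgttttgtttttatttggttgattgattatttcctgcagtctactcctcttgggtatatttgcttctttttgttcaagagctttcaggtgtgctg
Hamp2: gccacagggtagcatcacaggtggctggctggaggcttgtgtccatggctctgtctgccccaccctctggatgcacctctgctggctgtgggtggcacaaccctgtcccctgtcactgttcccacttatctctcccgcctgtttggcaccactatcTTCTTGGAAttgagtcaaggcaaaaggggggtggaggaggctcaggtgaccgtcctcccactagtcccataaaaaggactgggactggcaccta
The palindrome begins 141, 109 and 94 bases before the start in these 3 genes. Of the 15 largest rises selected by rule, 13 had a listed promoter and 3 held the palindrome in those 250 bases. Of the 15 largest falls, 9 had a listed promoter and 0 held it. Searched from 250 bases before to 50 after the start, where it reads the same on both strands, it was found in 8.62% of the 12023 tested genes with a listed promoter. The share was 14.3% (11 of 77) among rises of at least 4-fold and 0 of 45 among falls of at least 4-fold. Over all called genes it was 10.5% of those that rose and 6.28% of those that fell. Most of the 9 listed promoters among the largest falls belong to major urinary protein genes, copies of one family that also count among the 45. The 0 of 9 and 0 of 45 are thus not counts of independent promoters, and no difference between shares was tested. A match is a description of the letters in this window and shows no binding.

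Conjugating enzymes and transporters divided by member. Of 12 sulfotransferase genes 7 rose and 2 fell (75% called, beside 14.3% of all genes), with a median of 0.92. Of these calls 9 were made again without ORX_Nx 4 and ORX_Nx 5 but 2 in the 9 libraries alone. Sult2a2 rose by 5.30 ± 1.1203 from at most 0.0519 CPM, in ORX_Nx 1 and ORX_Nx 2 above all. Sult1c2 rose by 1.60 ± 0.25 and Sult1a1 rose by 0.57 ± 0.13, whereas Sult2a8, known as a bile acid sulfotransferase of male mouse liver, went from 688, 569.8, 551 and 591 CPM to 311, 375, 209, 295 and 50.2 CPM and fell by 1.27 ± 0.34, a call lost without Sham_Nx 2 (edgeR BH-adjusted p = 0.053). Of 20 glucuronosyltransferases 6 fell and 2 rose (40% called). Ugt2b38 fell by 3.18 ± 0.60 and Ugt2b1 fell by 1.56 ± 0.23, while Ugt1a9 rose by 0.68 ± 0.14. Of 18 carboxylesterases 3 fell and 3 rose (33.3% called). Ces3a, a lipase of the hepatocyte endoplasmic reticulum, went from 1927, 1663, 1685 and 1621 CPM to 759, 797, 633, 782 and 454 CPM (fell by 1.33 ± 0.19; edgeR BH-adjusted p = 0.000259). Of 21 glutathione transferases 5 rose and 2 fell (33.3% called), and Gstt3 rose by 1.18 ± 0.23. Of 25 organic ion transporters 4 rose and 3 fell (28% called), and all 7 calls were kept in every alternative setting. Within the Slc22a genes of this list, Slc22a26, Slc22a27 and Slc22a29 rose while Slc22a28 fell by 2.48 ± 0.35 and Slc22a7 fell by 1.74 ± 0.35. Slco1a4 moved against Slco1a1, from 21.2, 60.8, 39.1 and 33.6 CPM in Sham_Nx to 164, 179.9, 227, 147 and 234 CPM in ORX_Nx (rose by 2.30 ± 0.23; edgeR BH-adjusted p = 6.17e-06). Of 39 ABC transporters 10 rose and 2 fell (30.8% called). The multidrug exporter Abcb1a rose by 1.69 ± 0.25, the peroxisomal fatty acid importer Abcd2 rose by 1.33 ± 0.18, and the urate and drug exporter Abcg2 fell by 1.02 ± 0.12.

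Transcripts of the hormone pathway that is known to set these sex differences changed for single members. Of 23 transcription factors of sex-biased liver expression, 3 rose and 1 fell (17.4% called, beside 14.3% of all genes). Cux2, the female-biased repressor, stood at 2.72, 2.66, 3.41 and 2.25 CPM in Sham_Nx and at 7.81, 7.58, 6.30, 7.01 and 11.1 CPM in ORX_Nx and rose by 1.52 ± 0.34 (edgeR BH-adjusted p = 0.0084), with every orchiectomized liver above every sham liver. Stat5b rose by 0.43 ± 0.10 and Tox rose by 0.85 ± 0.25, and the calls of both were lost in the 9 libraries alone. The call of Tox was also lost without Sham_Nx 2, 4 or 5 or ORX_Nx 1, 2 or 4 (edgeR BH-adjusted p 0.0565 to 0.102). Bcl6 varied widely within both groups, with 14.8, 87.8, 26.8 and 45.5 CPM in Sham_Nx and 9.96, 27.2, 71.7, 54.8 and 9.30 CPM in ORX_Nx (−0.33 ± 0.54, not called). Among 23 genes of growth hormone and prolactin receptor signalling 6 rose and 1 fell (30.4% called, beside 14.3% of all genes). Of these 23 genes 3 were called without Sham_Nx 2, 4 without Sham_Nx 5 and 3 in the 9 libraries alone. Besides Prlr, the leptin receptor Lepr rose by 1.72 ± 0.33 and the epidermal growth factor receptor Egfr fell by 1.22 ± 0.31, the latter a call lost without Sham_Nx 2 (edgeR BH-adjusted p = 0.0689). The growth hormone receptor Ghr stood at −0.23 ± 0.17 and Igf1, the main circulating product of growth hormone action, at −0.11 ± 0.12, and neither passed. Socs3, a feedback inhibitor of cytokine receptors, reached 141 CPM in ORX_Nx 4 against 18.6, 26.3, 7.92 and 9.63 CPM in the other orchiectomized livers, and its call was lost without Sham_Nx 2 or 5 (edgeR BH-adjusted p 0.0523 to 0.0567). Of 31 nuclear receptors 1 was called (3.23%), the thyroid hormone receptor Thrb, which fell by 0.51 ± 0.16, and that call was lost without Sham_Nx 2, 4 or 5 or ORX_Nx 3, 4 or 5 (edgeR BH-adjusted p 0.0624 to 0.117). The xenobiotic receptor Nr1i3 stood at 0.45 ± 0.26 and did not pass.

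Genes of steroid and bile acid metabolism moved both ways. Of 27 genes of androgen and estrogen metabolism 6 fell and 2 rose (29.6% called, beside 14.3% of all genes), and 5 fell and 4 rose without ORX_Nx 4 and ORX_Nx 5. Srd5a1, a steroid 5-alpha-reductase, stood at 117, 93.8, 107 and 97.8 CPM in Sham_Nx and at 28.8, 31.4, 29.9, 32.0 and 32.9 CPM in ORX_Nx, a narrow range in both groups, and fell by 1.75 ± 0.22 (edgeR BH-adjusted p = 6.71e-05). Hsd17b6, a hydroxysteroid dehydrogenase that acts on androgens, went the other way, from 101, 67.5, 62.5 and 40.8 CPM to 296, 303, 414, 252 and 94.6 CPM (rose by 2.003 ± 0.39; edgeR BH-adjusted p = 0.00345). Its groups overlapped at ORX_Nx 5 and Sham_Nx 2. In bile acid synthesis and transport 6 of 23 genes rose and 6 fell (52.2% called). The sterol 12-alpha-hydroxylase Cyp8b1 fell by 1.30 ± 0.29, the sterol 27-hydroxylase Cyp27a1 fell by 0.62 ± 0.12, and Cyp2c70, which makes muricholic acids in mice, rose by 0.69 ± 0.17. Cyp7a1, the rate-limiting enzyme of bile acid synthesis, stood at 0.17 ± 0.31 with overlapping groups.

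In lipid metabolism the changes were spread over single genes. Of 24 fatty acid synthesis genes 3 rose and 2 fell (20.8% called, beside 14.3% of all genes), and 1, 2, 3 and 3 were called without Sham_Nx 2, Sham_Nx 4, ORX_Nx 1 or ORX_Nx 3. Those that fell were Elovl3 and Elovl2 (−0.36 ± 0.09, a call lost without Sham_Nx 2 (edgeR BH-adjusted p = 0.0518)). Srebf1, the transcription factor that drives lipogenesis, stood at 33.0, 33.2, 38.001 and 36.2 CPM in Sham_Nx and at 179, 123, 134.9, 50.2 and 48.3 CPM in ORX_Nx and rose by 1.61 ± 0.43 (edgeR BH-adjusted p = 0.0193), with ORX_Nx 1 to 3 well above ORX_Nx 4 and ORX_Nx 5. That call was lost without Sham_Nx 2 or 4 (edgeR BH-adjusted p 0.051 to 0.0519). Fasn, fatty acid synthase, followed the same split at 258, 296, 284, 121 and 105.95 CPM against 106.3, 97.9, 123 and 105 CPM in Sham_Nx and did not pass (0.98 ± 0.39). All 24 cholesterol synthesis genes had a positive log2 fold change, with a median of 0.537, and 2 were called (8.33%). The epoxidase Sqle rose by 1.30 ± 0.36, a call lost without Sham_Nx 2, 3 or 5 (edgeR BH-adjusted p 0.0551 to 0.0777). Without ORX_Nx 4 and ORX_Nx 5 the median of this list was 0.815 and 9 genes were called, compared with 7 without ORX_Nx 5 alone and 1 without Sham_Nx 2, Sham_Nx 3 or Sham_Nx 5. Of 30 fatty acid oxidation genes 4 rose and 5 fell (30% called), the largest fall being that of the glycolate oxidase Hao1 (−0.95 ± 0.18). Of 29 genes of fatty acid uptake and lipid droplets 2 rose and 4 fell (20.7% called), and 3 were called without Sham_Nx 4. The lipid droplet protein Cidec fell by 1.91 ± 0.58, but Sham_Nx 4 was at 51.7 CPM and the other sham livers at 14.3, 14.2 and 12.3 CPM, and the call was lost without Sham_Nx 4 or ORX_Nx 1, 2, 3 or 4 (edgeR BH-adjusted p 0.0535 to 0.208). Without Sham_Nx 4 its log2 fold change was −1.142. None of 14 acyl-CoA thioesterase genes was called. Of 13 genes of the mitochondrial genome 3 fell (23.1% called). These were mt-Nd2 (−0.48 ± 0.11), mt-Nd5 (−0.42 ± 0.12) and mt-Nd6 (−0.42 ± 0.11), all subunits of complex I. The calls of mt-Nd5 and mt-Nd6 were lost without Sham_Nx 4 or 5 (edgeR BH-adjusted p 0.0546 to 0.0711) and without Sham_Nx 4 (edgeR BH-adjusted p = 0.0638), respectively. In amino acid catabolism 2 of 34 genes rose and 2 fell, or 11.8%, a share below that of all genes, and 2, 2 and 1 were called without Sham_Nx 2, 4 or 5. Among those that fell was Tdo2, the first enzyme of tryptophan breakdown, which fell by 0.63 ± 0.13.

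Secreted proteins of the liver changed in composition. Clade A serpins, protease inhibitors and hormone carriers encoded in clusters, took 3.51 ± 0.175% of counts in Sham_Nx (SD, n = 4) and 2.203 ± 0.227% in ORX_Nx (SD, n = 5), with no overlap between groups. Of 21 members 6 rose and 6 fell (57.1% called, beside 14.3% of all genes). Serpina1e, one of several alpha-1-antitrypsin genes of the mouse, stood at 4917, 6026, 6028 and 3333 CPM in Sham_Nx and at 15.4, 21.4, 29.6, 162 and 712 CPM in ORX_Nx and fell by 4.76 ± 0.97 (edgeR BH-adjusted p = 0.00455). ORX_Nx 4 and ORX_Nx 5 were the highest orchiectomized livers and still lay below the sham livers. Serpina3k, a kallikrein-binding inhibitor, went from 10516, 10649, 13021 and 10433 CPM to 2606, 3881, 3692, 5129 and 5808 CPM and fell by 1.40 ± 0.17, and Serpina1c fell by 0.83 ± 0.14. The carriers of hormones in blood rose: Serpina6, corticosteroid-binding globulin, went from 80.6, 105, 33.8 and 105 CPM to 379, 299, 264, 298 and 143.7 CPM (rose by 1.77 ± 0.33; edgeR BH-adjusted p = 0.0025). Serpina7, thyroxine-binding globulin, stood at 32.9, 24.7, 12.2 and 36.7 CPM in Sham_Nx and at 286, 224, 247, 237 and 50.6 CPM in ORX_Nx and rose by 2.97 ± 0.43 (edgeR BH-adjusted p = 0.000277). Both calls were kept in all 25 alternative settings.

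Among 36 complement and coagulation genes 5 rose and 4 fell (25% called, beside 14.3% of all genes), and the 4 that fell encode parts of the membrane attack complex. The number called was 19 with no scaling factors, 14 under DESeq2, 5 in the 9 libraries alone and 4 without Sham_Nx 4. C6 stood at 283, 264, 274 and 266 CPM in Sham_Nx and at 26.7, 21.6, 22.5, 85.6 and 57.5 CPM in ORX_Nx and fell by 2.67 ± 0.36 (edgeR BH-adjusted p = 0.000114). C8a fell by 1.22 ± 0.29, C8b fell by 1.10 ± 0.24 and C9 fell by 1.06 ± 0.31, and in each of the 4 genes ORX_Nx 4 and ORX_Nx 5 were the highest orchiectomized livers and lay below every sham liver. The call of C9 was lost with only the 9 libraries in the fit and without Sham_Nx 2, 3, 4 or 5 or ORX_Nx 1 or 3 (edgeR BH-adjusted p 0.0506 to 0.0657). C3, the central component, went from 8851, 8175, 9331 and 8343 CPM to 13051, 12705, 13108, 15210.2 and 13499.8 CPM (rose by 0.64 ± 0.11; edgeR BH-adjusted p = 0.00135), and the alternative pathway factor Cfb rose by 0.36 ± 0.09, a call lost without Sham_Nx 2 or 4 (edgeR BH-adjusted p 0.051 to 0.063). Of 23 genes of the unfolded protein response, chaperones and their regulators in the endoplasmic reticulum, 11 fell and none rose, with 22 negative log2 fold changes and a median of −0.534 (47.8% called, beside 14.3% of all genes). No member was called with no scaling factors, without Sham_Nx 2 or without Sham_Nx 5. There were 6, 2, 2, 5 and 6 calls without Sham_Nx 4, ORX_Nx 2, ORX_Nx 3, ORX_Nx 4 or ORX_Nx 5. The chaperone Hspa5 stood at 3113, 1872, 1785 and 2210 CPM in Sham_Nx and at 1832, 964, 864, 1325 and 1326 CPM in ORX_Nx (fell by 0.83 ± 0.27; edgeR BH-adjusted p = 0.0471). Sham_Nx 2 was the highest liver and ORX_Nx 2 and ORX_Nx 3 were the lowest, and the call was lost without Sham_Nx 2, 3, 4 or 5 or ORX_Nx 2, 3, 4 or 5 (edgeR BH-adjusted p 0.0547 to 0.164). Of the 11 calls, only that of Calr, calreticulin, was made again in the 9 libraries alone (−0.54 ± 0.16), and it was lost without Sham_Nx 2, 4 or 5 or ORX_Nx 2 or 3 (edgeR BH-adjusted p 0.0512 to 0.102). Without ORX_Nx 4 and ORX_Nx 5, 3 of the 11 calls were made again.

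Most acute phase genes rose, and several stood highest in ORX_Nx 4 and ORX_Nx 5. Of 28 acute phase genes 18 rose, 1 fell (Serpina3k) and 9 did not pass (67.9% called, beside 14.3% of all genes), with a median of 0.734. Without ORX_Nx 4 and ORX_Nx 5 the median was 0.352 and 6 rose. The 19 calls became 8 in the 9 libraries alone, 11, 11, 11 and 10 without Sham_Nx 2, 3, 4 or 5, and 12 without ORX_Nx 4. Orm2, an orosomucoid, stood at 4.06, 3.84, 4.73 and 3.37 CPM in Sham_Nx and at 16.3, 20.1, 15.7, 112 and 94.6 CPM in ORX_Nx and rose by 3.69 ± 0.76 (edgeR BH-adjusted p = 0.00487), and its call was kept in every alternative setting. Saa1, serum amyloid A, stood at 11.6, 10.9, 14.5 and 9.46 CPM in Sham_Nx and at 27.4, 22.5, 22.7, 248 and 343 CPM in ORX_Nx (rose by 3.51 ± 0.95), a call lost without ORX_Nx 4 and ORX_Nx 5 together and without Sham_Nx 2, 3, 4 or 5 or ORX_Nx 5 (edgeR BH-adjusted p 0.0503 to 0.0589). Lcn2, the iron-sequestering lipocalin 2, stood at 8.28, 9.12, 9.54, 67.1 and 164 CPM in ORX_Nx against 1.70, 2.53, 4.10 and 2.49 CPM in Sham_Nx (rose by 4.24 ± 0.98), and this call too was lost without the pair. In these 3 genes ORX_Nx 1 to 3 lay above all sham livers, by less than ORX_Nx 4 and ORX_Nx 5 did. Cxcl1, a neutrophil-attracting chemokine, was at 222 CPM in ORX_Nx 4 and at 9.92, 8.73, 5.49 and 7.82 CPM in the other orchiectomized livers, against at most 2.42 CPM in Sham_Nx (rose by 4.92 ± 1.11). The call of Cxcl1 was kept without ORX_Nx 4 and ORX_Nx 5 and lost under DESeq2, limma-voom and the 9 libraries alone. Itih4 rose by 0.90 ± 0.16 and Serpina3m rose by 0.72 ± 0.12 with similar values in all 5 livers, and their calls were made again without ORX_Nx 4 and ORX_Nx 5. Of 25 interferon-stimulated genes 9 rose (36% called), led by the guanylate-binding proteins Gbp3 (1.59 ± 0.36) and Gbp2 (1.38 ± 0.31), and 5 of the 9 calls were made again without the pair. In the 9 libraries alone 2 were called, and there were 4, 4, 5 and 4 calls without Sham_Nx 3, Sham_Nx 4, Sham_Nx 5 or ORX_Nx 5.

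Markers of several other cell types rose as well, and those of Kupffer cells and of neutrophils and monocytes summed highest in ORX_Nx 4 and ORX_Nx 5. Of 14 Kupffer cell and macrophage markers 11 rose with a median of 1.08 (78.6% called, beside 14.3% of all genes), but in none did the groups separate, and 0 were called in the 9 libraries alone or without ORX_Nx 4 and ORX_Nx 5, where the median was 0.401. Without Sham_Nx 3, Sham_Nx 4, Sham_Nx 5 or ORX_Nx 4 there were 4, 2, 3 and 4 calls. The scavenger receptor Marco showed this most clearly, at 15.9, 3.88, 2.82, 101 and 55.0 CPM in ORX_Nx against 7.79, 4.26, 4.36 and 5.55 CPM in Sham_Nx, and its call was lost without Sham_Nx 2, 3, 4 or 5 or ORX_Nx 4 or 5 (edgeR BH-adjusted p 0.0563 to 0.0953). Neutrophil and monocyte markers summed to 6.64 to 7.83 CPM in Sham_Nx and 6.55 to 55.5 CPM in ORX_Nx, and 4 of 8 rose (50% called) with a median of 1.55. Without ORX_Nx 4 and ORX_Nx 5 that median was −0.047 and 1 rose, and 1 was called in the 9 libraries alone and on leaving out any 1 sham liver, ORX_Nx 4 or ORX_Nx 5. Lymphocyte markers summed to 66.1 to 130 CPM and 101.5 to 914 CPM, 6 of 19 rose (31.6% called), and ORX_Nx 5 was by far the highest liver. Of these 6 calls 1 was made again without ORX_Nx 4 and ORX_Nx 5 and 1 in the 9 libraries alone, and 2, 1, 2 and 2 lymphocyte markers were called without Sham_Nx 2, Sham_Nx 4, Sham_Nx 5 or ORX_Nx 5. Of 13 stellate cell and fibroblast markers 6 rose (46.2% called), of which 1 was called again without ORX_Nx 4 and ORX_Nx 5 and 1 in the 9 libraries alone. Without Sham_Nx 3, Sham_Nx 4, Sham_Nx 5, ORX_Nx 3 or ORX_Nx 5 there were 3, 1, 3, 3 and 3 calls of these markers. Col3a1, a fibrillar collagen, stood at 12.2, 10.2, 7.30 and 11.5 CPM in Sham_Nx and at 22.2, 17.5, 32.0, 25.8 and 59.6 CPM in ORX_Nx (rose by 1.61 ± 0.34), and its call was the one kept without ORX_Nx 4 and ORX_Nx 5. Of 28 genes of the histocompatibility complex with symbols starting with H2, 15 rose and none fell (53.6% called), with a median of 0.744. Without ORX_Nx 4 and ORX_Nx 5 the median was 0.558 and 6 rose, and 3 rose in the 9 libraries alone. Without Sham_Nx 2, Sham_Nx 3, Sham_Nx 4, Sham_Nx 5 or ORX_Nx 5 there were 8, 7, 3, 4 and 8 calls. Of 12 sinusoidal endothelial markers 0 were called. Of 14 periportal hepatocyte markers 2 rose and 1 fell (21.4% called), and of 14 pericentral markers 2 fell (14.3% called, as over all genes). Of these pericentral markers 1 was called on leaving out Sham_Nx 2, 4 or 5 or ORX_Nx 1. The periportal Cyp2f2 fell by 0.88 ± 0.19 and the periportal Aldh1b1 rose by 1.70 ± 0.26.

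**Figure D4:**
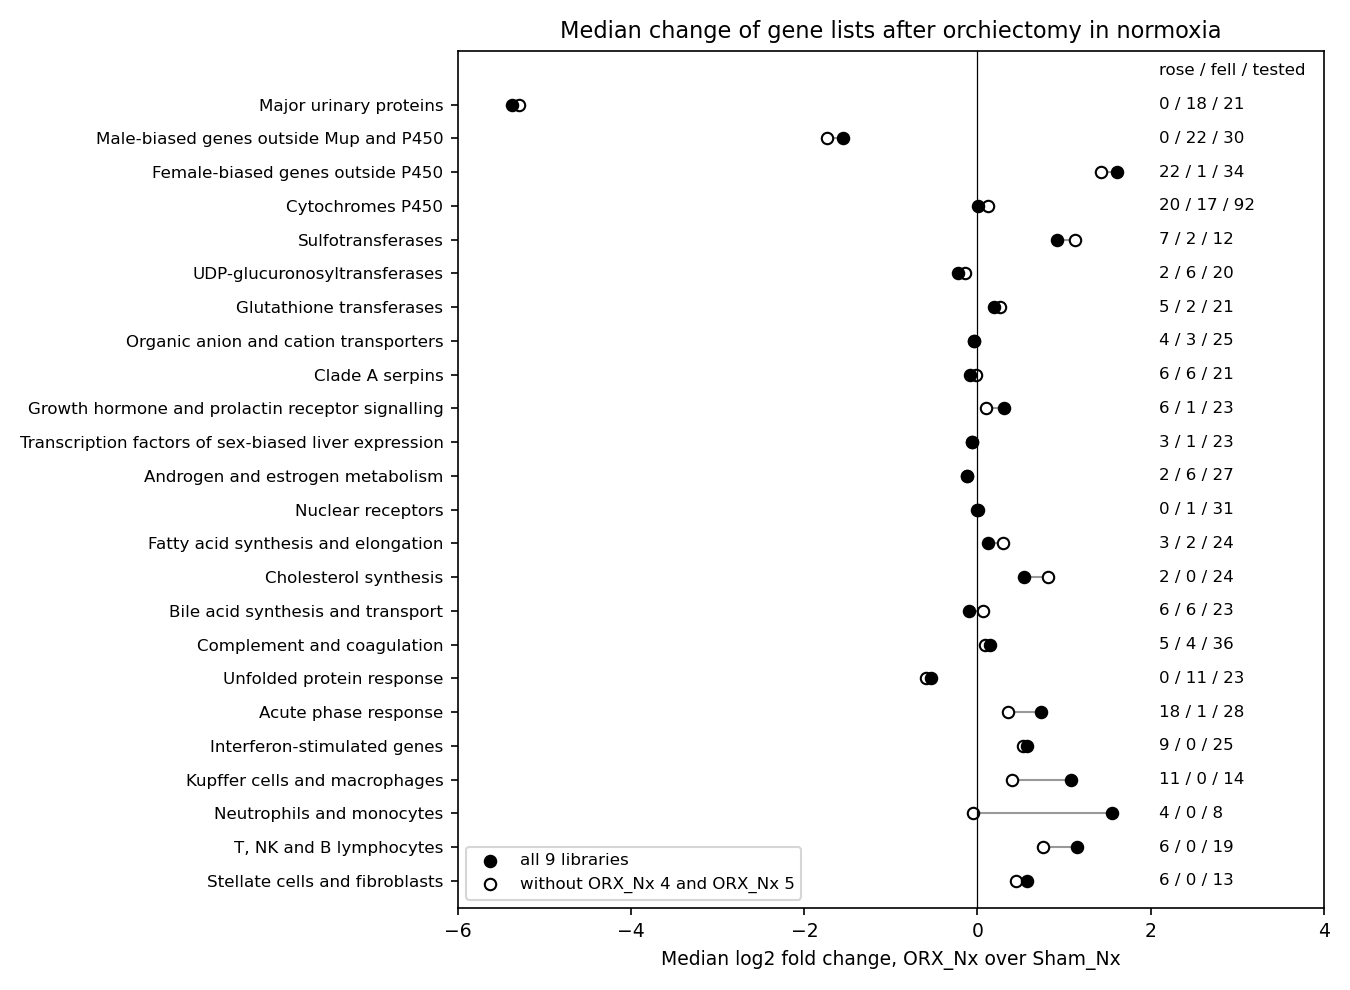
Median log2 fold change of 24 gene lists after orchiectomy in normoxia (horizontal axis), with all 9 libraries (filled circles) and without ORX_Nx 4 and ORX_Nx 5 (open circles); numbers at the right give how many genes of each list rose, fell and were tested. Male-biased and female-biased lists lie at nearly the same place in both, while acute phase, Kupffer cell and neutrophil lists move towards 0.

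Of 8 erythroid genes tested 2 fell and 6 did not pass (25% called, beside 14.3% of all genes). The 1 positive log2 fold change among the 8 was 0.692, and in 1 gene every ORX_Nx liver lay above every Sham_Nx liver. Those that fell encode enzymes, while the haemoglobin genes did not pass. Alas2, the erythroid 5-aminolevulinate synthase, stood at 98.4, 87.5, 78.0 and 88.3 CPM in Sham_Nx and at 23.8, 28.2, 22.9, 34.5 and 35.0 CPM in ORX_Nx and fell by 1.61 ± 0.17 (edgeR BH-adjusted p = 1.07e-05), a call kept in all 25 alternative settings. Bpgm, bisphosphoglycerate mutase, fell by 0.45 ± 0.08. The haemoglobin genes Hba-a1 and Hbb-bs stood at −0.28 ± 0.27 and −0.19 ± 0.29, did not pass, and their groups overlapped. Of 29 genes of iron and haem handling 2 rose and 2 fell (13.8%, near the 14.3% of all genes), and Slc39a4, a zinc importer, rose by 1.24 ± 0.19. The metallothioneins Mt1 and Mt2 rose by 2.01 ± 0.62 and 3.28 ± 0.80, with ORX_Nx 4 at 487 and 319 CPM, and both calls were lost without ORX_Nx 4 and ORX_Nx 5. That of Mt1 was also lost without Sham_Nx 2, 3 or 5 or ORX_Nx 4 or 5 (edgeR BH-adjusted p 0.0685 to 0.109). In glucose metabolism 3 of 26 genes rose and 2 fell (19.2% called), 2 were called in the 9 libraries alone or without Sham_Nx 2, 3 or 4, and 3 without ORX_Nx 1 or 3. The 5 included Ppargc1a, a coactivator of gluconeogenic genes (rose by 0.82 ± 0.17), and Pfkfb3, a glycolytic regulator (fell by 0.94 ± 0.22). Of 21 clock genes 2 were called (9.52%), of which Bhlhe40 rose by 1.504 ± 0.31 and Clock fell by 0.36 ± 0.09. Of 29 genes of secreted liver hormones 4 rose and none fell (13.8% called, near the 14.3% of all genes). Among the 4, Fgl1, a hepatocyte-derived fibrinogen-like protein, rose by 1.29 ± 0.27, and the angiotensin precursor Agt rose by 0.53 ± 0.11.

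By change in CPM, which is not corrected for transcript length, the 10 largest falls among called genes were those of Mup7, Mup22, Serpina3k, Mup3, Mup14, Mup11, Mup20, Serpina1e, Mup19 and Serpina1c. The 10 largest rises among called genes were those of C3, Hpx, Fgb, Itih4, Fgg, Ces1c, Cyp2b9, Itih2, Cyp2c37 and Kng1. The falls were thus of pheromone carriers and protease inhibitors, and the rises other than Cyp2b9 and Cyp2c37 were of genes for plasma proteins. Genes that did not pass are outside this ranking, among them Alb (0.29 ± 0.19), whose mean CPM differed by more than that of C3. Hpx, the haem-binding hemopexin, stood at 2747, 2412, 2328, 6023 and 6881 CPM in ORX_Nx against 2174, 2396, 2308 and 2199.6 CPM in Sham_Nx (rose by 0.85 ± 0.28), with overlap at ORX_Nx 3, and its call was kept in 8 of 25 alternative settings and lost without Sham_Nx 2, 3, 4 or 5 or ORX_Nx 4 or 5 (edgeR BH-adjusted p 0.0816 to 0.133). Fgb and Fgg, fibrinogen chains, rose by 0.46 ± 0.13 and 0.40 ± 0.13, and both calls were lost without ORX_Nx 4 and ORX_Nx 5 together. That of Fgb was also lost without Sham_Nx 3, 4 or 5 or ORX_Nx 4 (edgeR BH-adjusted p 0.0553 to 0.0837) and that of Fgg without Sham_Nx 2, 3, 4 or 5 or ORX_Nx 4 or 5 (edgeR BH-adjusted p 0.0544 to 0.137). Itih2 rose by 0.56 ± 0.13, Kng1, the kinin precursor, rose by 0.35 ± 0.09, and the carboxylesterase Ces1c rose by 0.47 ± 0.13. The call of Kng1 was lost without Sham_Nx 4 (edgeR BH-adjusted p = 0.0615) and that of Ces1c without Sham_Nx 2 or 4 (edgeR BH-adjusted p 0.0572 to 0.0798). Cyp2b9 was the one gene of these rises that also belonged to the 15 largest fold changes.

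Genes outside the lists also kept their calls in all 25 alternative settings, and 8 are named here that were chosen after their values were seen. Capn8, a calpain, stood at 2.33, 1.85, 3.39 and 1.95 CPM in Sham_Nx and at 0.0837, 0.131, 0.330, 0.219 and 0.279 CPM in ORX_Nx and fell by 3.50 ± 0.46 (edgeR BH-adjusted p = 0.000107). Mtnr1a, a melatonin receptor, fell by 2.85 ± 0.41, Lama3, a laminin chain, fell by 2.46 ± 0.32, and the transcription factor Mycn fell by 2.22 ± 0.35. Among the rises, Sh3gl2, an endophilin, stood at 0.730, 1.01, 0.856 and 1.19 CPM in Sham_Nx and at 9.57, 9.01, 9.02, 5.01 and 5.14 CPM in ORX_Nx and rose by 2.99 ± 0.30 (edgeR BH-adjusted p = 5.88e-06). The radial spoke gene Rsph4a rose by 3.51 ± 0.53, the sorting receptor Sorl1 rose by 1.78 ± 0.29, and Il1rn, the interleukin-1 receptor antagonist, rose by 1.94 ± 0.34. In each of these 8 genes the groups did not overlap.

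The same operation was compared in the 10 mice kept in intermittent hypoxia, which share no animal with the normoxia groups. There 465 genes were called (2.88% of 16164). Of these, 344 were also called in normoxia, which is 74.0% of the hypoxia calls and 14.8% of the normoxia calls, and all 344 changed in the same direction, 208 of them downward. Of the 2319 normoxia calls, 95.6% had the same sign in hypoxia, beside 72.5% of all genes tested. Across the normoxia calls, which are not independent of each other, the log2 fold changes of the comparisons had a Pearson r of 0.856. Of the 693 normoxia calls of at least 2-fold, 654 had the smaller change under hypoxia, though choosing genes by their normoxia call favours a larger value there. No gene passed the test of the difference between the orchiectomy effects in edgeR (smallest edgeR BH-adjusted p = 0.224), with 1025 genes at an unadjusted p under 0.05. DESeq2 called 63 genes and limma-voom 0 in the same test.

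**Figure D5:**
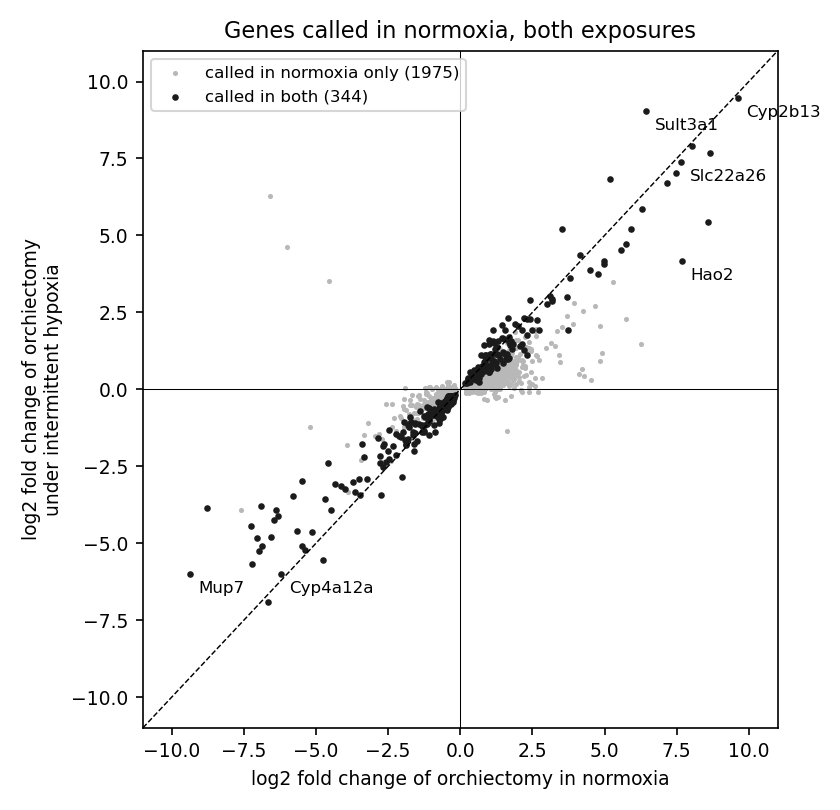
Log2 fold change of orchiectomy under intermittent hypoxia (vertical axis, 5 against 5 mice) against that in normoxia (horizontal axis, 5 against 4 mice) for the 2319 genes called in normoxia; dark points were called in both. All 344 genes called in both have the same sign on both axes, and the dashed line marks equal change.

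Gene by gene, Slc22a26 changed by 7.39 ± 0.37 under hypoxia beside 7.66 ± 0.40 in normoxia, Cyp4a12a by −6.02 ± 0.56 beside −6.22 ± 0.56, Mup20 by −5.23 ± 0.47 beside −5.38 ± 0.48, and Alas2 by −1.78 ± 0.17 beside −1.61 ± 0.17. These 4 genes had nearly the same values in both exposures. Mup14 changed by −4.44 ± 0.53 under hypoxia beside −7.26 ± 0.61, Hao2 by 4.16 ± 0.77 beside 7.68 ± 0.91, Slco1a4 by 1.121 ± 0.21 beside 2.30 ± 0.23 and Serpina7 by 1.35 ± 0.37 beside 2.97 ± 0.43. For these 4 the change was smaller under hypoxia, at unadjusted p of 0.000543, 0.0135, 0.000913 and 0.00747 for the difference (edgeR), none of which passed adjustment over all genes. The acute phase list had a median of 0.158 under hypoxia and 0.734 in normoxia, and the cholesterol synthesis list −0.163 and 0.537. Without ORX_Nx 4 and ORX_Nx 5 the normoxia medians of these lists were 0.352 and 0.815. The difference of list medians between exposures was not tested. Bcl6, not called in normoxia, stood at −2.96 ± 0.56 under hypoxia (edgeR BH-adjusted p = 0.00593).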

How the data were processed

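Polyadenylated RNA of whole mouse liver was sequenced from strand-specific libraries, 1 per mouse. The authors deposited estimated counts per gene for 19 libraries, made with kallisto 0.46.1 on GRCm39 after bcl2fastq 2.20, fastp 0.23.2, FastQC 0.11.9 and MultiQC 1.12, per the submitters' processing notes. Of these expected counts 27.5% were not whole and were rounded. A deposited table of normalised log2 values was not used. Columns were matched to mice by library number, operation and exposure. Genes passing filterByExpr with a minimum count of 10 (16164 of 36106, of which 11341 were at 0 in every library) were tested with edgeR 4.0.16 in R 4.3.3: TMM scaling, a quasi-likelihood F-test over the 4 groups, BH adjustment over all genes. SE is the size of the log2 fold change divided by the square root of F. DESeq2 1.42.0 and limma 3.58.1 (voom) were alternatives. Separate animals are given by the labels, and no 2 libraries of a group agreed within sampling noise (chi-square per degree of freedom 37.74 to 184 over 16 pairs). The procedure was tested on simulated data for this comparison. Of 50 genes changed at each size, 48% were recovered at 1.5-fold, 74% at 2-fold, 84% at 4-fold and 100% at 8-fold. There were 11 false calls among the unchanged genes of a step that held 15915 genes in all. Whether these rates hold for the real libraries, of which a few stood apart from their groups, was not tested.

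The gene lists, the comparison and the naming rule were chosen with earlier results of these data known. Named were the 15 largest rises and falls without overlap between groups at 1 CPM or more in the higher group, the 10 largest rises and falls in CPM, and list members that passed or whose role is discussed; some genes selected by this rule are not reported here. Promoters came from RefSeq on GRCm38.p6. kallisto divides reads among near-identical genes, which can shift values between copies.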

Additional observations from a re-analysis of the deposited data

Results flagged for a closer look

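A named gene's value is listed here where 1 library lay far from the rest of its group, that is, where its gap to the nearest other library made up more of the group's range than Dixon's 95% critical value for a group of that size. Of 344 combinations of a named gene and a group, 40 met this rule, and chance alone flags about 1 in 20 groups. Each value is in CPM, with the nearest other library of the group after it. Sham_Nx 2 stood above its group for Dpy19l3 at 11.4 (8.27). Sham_Nx 2 stood below its group for Cyp7a1 at 134.04 (246). Sham_Nx 3 stood above its group for Hba-a1 at 116 (79.7). Sham_Nx 3 stood below its group for Mup19 at 2122 (5059.5) and Mup22 at 13060.1 (15224). Sham_Nx 4 stood above its group for Cidec at 51.7 (14.3), Cyp2b13 at 0.355 (0.0203), Cyp2c40 at 69.6 (26.5) and Cyp2c69 at 42.5 (13.9). Sham_Nx 4 also stood above its group for Cyp4a10 at 5148 (2981), Serpina3k at 13021 (10649), Sult3a1 at 0.485 (0.0519) and Sybu at 0.743 (0.415). Sham_Nx 4 stood below its group for Kng1 at 1252 (1358). Sham_Nx 5 stood above its group for Sult1c2 at 2.197 (1.53). Sham_Nx 5 stood below its group for Cyp2c37 at 172 (219). ORX_Nx 1 stood above its group for Serpina4-ps1 at 5.49 (3.07). ORX_Nx 2 stood above its group for Atp6v0d2 at 9.91 (5.36), Cyp3a44 at 6.16 (2.15) and Sult3a1 at 37.4 (11.7). ORX_Nx 3 stood above its group for Mup-ps8 at 0.124 (0) and Obp2a at 0.0688 (0). ORX_Nx 4 stood above its group for Arsa at 38.9 (23.96), Cxcl1 at 222 (9.92), Fgb at 5894 (4101) and Fgg at 4205 (2893). ORX_Nx 4 also stood above its group for Mup-ps19 at 1.53 (0.503), Mup20 at 251 (103) and Socs3 at 141 (26.3). ORX_Nx 4 stood below its group for Abcb1a at 3.90 (6.68). ORX_Nx 5 stood above its group for A1bg at 310.2 (86.5), Aldh1b1 at 111 (56.3), Cidec at 11.95 (5.81) and Cyp4a12b at 5.22 (1.69). ORX_Nx 5 also stood above its group for Itih2 at 2232 (1427) and Serpina1e at 712 (162). ORX_Nx 5 stood below its group for Agt at 629.6 (878), Ces1c at 1620 (2507), Mup3 at 376 (1705) and Serpina7 at 50.6 (224). These values are given without an explanation.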

How the results depend on the processing

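The count of genes called in normoxia was 2319. It was 918 with only the 9 compared libraries, 1169 with these and without ORX_Nx 4 and ORX_Nx 5 (a combination added after the data were seen), 1476 without ORX_Nx 4 and ORX_Nx 5, 1098 with library numbers 1 to 16, 422 without the 4 libraries highest in muscle genes, 1101 without the 3 highest in pancreatic genes and 170 against a null of a 1.5-fold change. The removal of libraries leaves fewer mice, of which the muscle setting takes 2 of 4 sham livers; other causes were not tested. Leaving out 1 library gave 1140 to 2662. Under hypoxia the count was 465, and it was 971 with no scaling factors, 867 with DESeq2, 107 and 158 without the muscle and pancreatic libraries, 912 without ORX_Nx 4 and ORX_Nx 5, 90 against the 1.5-fold null and 396 to 704 on leaving out 1 library, with 704 without ORX_Nx 5. The difference between exposures gave 63 genes with DESeq2, of which 55 were negative, and 0 in edgeR and limma-voom. With the mouse number as a replicate block 1794 genes were called in normoxia. Same-numbered mice did not deviate together (r −0.075 to 0.035 over 4 pairs of normoxia libraries), so the numbers were not taken to pair the samples. Of the 172 named genes, called or not, 81 were called in all 25 settings and in the result as reported. Values of genes that were not called changed sign for Bcl6 (−0.78 to 0.24 on leaving out 1 library, the highest without Sham_Nx 3), Igf1 (0.021 with no scaling factors), Cyp4a10 (0.002 with no scaling factors, 0.11 without ORX_Nx 4 and ORX_Nx 5 in either fit and −0.25 to 0.16 on leaving out 1 library), Cyp7a1 (−0.042 without the muscle libraries, and −0.070 to 0.33 on leaving out 1 library) and Hamp (−0.145 and −0.144 without ORX_Nx 4 and ORX_Nx 5). Counting error is small for well expressed genes at 30.6 to 69.6 M counts per library, and for these the number of mice limits the precision. It is larger for genes nearly silent in sham livers, such as Sult3a1, Sult2a2, Hao2, Cyp3a44 and Cyp3a41a, whose fold changes rest on few sham reads.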

Other observations

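Most tested pseudogenes of the major urinary protein cluster fell, as most of the coding genes did. Of 11 tested members with symbols starting with Mup-ps, 8 fell and none rose (72.7% called, beside 14.3% of all genes). There were 7 falls without ORX_Nx 4 and ORX_Nx 5 and 6 in the 9 libraries alone. Mup-ps19 stood at 10.3, 6.68, 4.38 and 8.20 CPM in Sham_Nx and at 0.268, 0.187, 0.440, 1.53 and 0.503 CPM in ORX_Nx and fell by 3.63 ± 0.54 on the log2 scale (edgeR BH-adjusted p = 0.000361). Mup-ps12 fell by 3.88 ± 0.86 and Mup-ps7 fell by 3.46 ± 0.69. These genes were chosen after their values were seen, and reads of near-identical coding copies can be assigned to them.

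Sham_Nx 4 was the sham liver with the highest level of several genes that rose after orchiectomy, at 69.6 CPM for Cyp2c40, 42.5 CPM for Cyp2c69, 0.355 CPM for Cyp2b13, 0.485 CPM for Sult3a1 and 0.743 CPM for Sybu. For each of these 5 genes the lowest orchiectomized liver lay above Sham_Nx 4. In the same liver Mup7 stood at 18261 CPM and Mup20 at 4609 CPM, within the range of the other sham livers for Mup7 and just under it for Mup20.

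Among genes called in normoxia, Myh4, a skeletal muscle myosin, had a log2 fold change of −6.004 ± 1.62 there and of 4.63 ± 1.55 under intermittent hypoxia. Its level was 20.6 and 6.66 CPM in Sham_Nx 2 and Sham_Nx 3 and at most 0.223 CPM in ORX_Nx, as for the muscle list as a whole, and its call was lost without Sham_Nx 2 (edgeR BH-adjusted p = 0.0814).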
